A study of Homo sapiens with 12 samples.

Results

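Ribosome biogenesis genes and MYC were followed gene by gene through the loss of FAK in 2 PDAC cell lines. The set holds 40 genes, chosen by name from a list of MYC and 39 genes of the nucleolus, RNA polymerase I, the small nucleolar ribonucleoproteins (snoRNPs) and the assembly of both ribosomal subunits. All 40 had a row in the array table, with 62 rows in all, and 39 genes had at least 1 probe that was detected at p under 0.05 in at least 2 of 12 arrays. Those 39 genes gave 57 probes of the 24207 tested, or 0.235%. NPM1, which encodes nucleophosmin, was the gene left without a tested probe. Its single probe was detected in 0 arrays, with intensities between 79.2 and 94.7 where the array medians lay between 87.7 and 97, so no level is given for it.

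The study asked what the loss of FAK, the kinase encoded by PTK2 that signals from integrins at focal adhesions, does to PDAC cells. MIA PaCa-2 and Capan-1 are established human lines from pancreatic ductal adenocarcinoma. Each carried a doxycycline-inducible pLKO.1 hairpin, either scrambled (shCtrl) or against FAK (sh1209 or sh1319, the latter named shFAK1319 in the Capan-1 labels), which made 6 groups of 2 arrays on 1 chip. Doxycycline was given to all 6 groups, shCtrl included, at 50 ng/ml over 96 hours, and the cells were kept in puromycin (3.5 ug/ml in the MIA PaCa-2 medium, 1.5 ug/ml in that of Capan-1). Each labelling took 500 ng of total RNA. Whether both arrays of a group stem from different cultures is not in the labels, so p-values measure only the spread between those arrays. As each hairpin was compared with the shCtrl of its own line, the 2 differences within a line share their control arrays.

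Ribosomes are built in the nucleolus, where RNA polymerase I transcribes a long precursor rRNA. The snoRNPs modify that precursor at chosen bases, and large sets of assembly factors fold, trim and cut it into the small and the large subunit. MYC is a transcription factor, often high in pancreatic cancer, that is known for driving ribosome production, and it binds DNA with its partner MAX at a short sequence called the E-box.

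Because the set joins MYC to genes it is known to regulate, the canonical E-box CACGTG, which reads the same on both strands, was looked up in the 250 bases before each start site in RefSeq's promoters of GRCh38.p14. Of the 40 genes, 31 had at least 1 promoter there, with 37 promoters in all, and BOP1, MYC, NOLC1, NOP58, POLR1E, RRP12, RRP1B, RRS1 and URB2 had none. The E-box stood in 3 of 37 promoters (8.11%), against 2228 of 35116 promoters of the whole table (6.34%) and 1637 of 22199 for protein-coding genes (7.37%). It stood in 17 of 101 promoters of other ribosome biogenesis genes (16.8%) and in 14 of 39 promoters of MYC target genes outside that process (35.9%). The 3 sites are printed, each with the 30 bases around it on the plus strand and the E-box in capitals, because they are the places where this window ties a member to MYC's own motif. The site began 31 bases before the start for DDX21 (chr10:68956604-68956633), 203 bases before it for IMP4 (chr2:130342682-130342711) and 10 bases before it for UTP20 (chr12:101280075-101280104).
DDX21: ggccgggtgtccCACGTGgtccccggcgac
IMP4: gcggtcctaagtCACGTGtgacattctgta
UTP20: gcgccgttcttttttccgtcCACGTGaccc
None of these 3 genes was called in any comparison of a FAK hairpin with its control. Such a match describes the letters alone.

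Levels are given as log2 intensity after background correction and quantile normalization, and changes as differences of group means on that scale with their SE. A difference was called at an adjusted p under 0.05 in limma, with Benjamini-Hochberg adjustment over all 24207 probes. The SD between the 2 arrays of a group had a median of 0.11 over member probes and 0.16 over all probes, and arrays of 1 group correlated at 0.991 to 0.994 (0.867 to 0.891 between lines). The target, PTK2, changed on its brighter probe in MIA PaCa-2 by -2.24 (SE 0.11) with sh1209 and -2.48 (SE 0.11) with sh1319 (limma adjusted p = 1.5e-07 and 5.2e-08), and in Capan-1 with sh1319 by -1.78 (SE 0.11, adjusted p = 5.9e-06). In Capan-1 with sh1209 it fell by only 0.61 (SE 0.11, adjusted p = 0.0036), which left 65.4% of the shCtrl level, and with median scaling that fall was 0.42 and not called (adjusted p = 0.23). The second PTK2 probe, dim and detected in 11 arrays, was not called in any of these pairs, at 0.31 and -0.29 (SE 0.16, adjusted p = 0.25 each) in MIA PaCa-2 and at -0.46 for each hairpin (SE 0.16, adjusted p = 0.08 and 0.09) in Capan-1, so on these arrays the knockdown rests on 1 of 2 probes. With shCtrl in MIA PaCa-2 the dim probe had a mean of 5.04, where the lowest detected level was 4.71, which left little room for a fall. The paper shows FAK expression after the knockdown in MIA PaCa-2 separately. KRT8, an epithelial keratin, was detected in all 12 arrays, while EPCAM and CDH1 were detected in 6 of 6 Capan-1 arrays and in only 2 and 0 of 6 MIA PaCa-2 arrays, so those epithelial markers were near the floor in MIA PaCa-2.

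MYC went in opposite directions in the 2 lines. On its brighter probe the MIA PaCa-2 arrays read 10.00 and 9.88 with shCtrl, 10.20 and 10.28 with sh1209, and 10.32 and 10.30 with sh1319. The Capan-1 arrays read 10.17 and 10.14 with shCtrl, 9.20 and 9.08 with sh1209, and 9.79 and 9.86 with sh1319. In MIA PaCa-2 all 4 knockdown arrays lay above both control arrays, and in Capan-1 all 4 lay below. As these are bulk samples brought to one scale, fewer cells with a transcript and less of it per cell cannot be told apart.

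In Capan-1 with sh1209 MYC fell by 1.01 (SE 0.11) to 49.5% of the shCtrl level in limma (adjusted p = 9.6e-05), and the dimmer probe fell by 1.01 (SE 0.14) to 49.8% (adjusted p = 0.00053). In MIA PaCa-2 with sh1319 it rose by 0.37 (SE 0.11, adjusted p = 0.028) and by 0.58 (SE 0.14, adjusted p = 0.01) on the respective probes. The brighter probe's values in the remaining pairs, 0.30 (SE 0.11, adjusted p = 0.085) for sh1209 in MIA PaCa-2 and -0.33 (SE 0.11, adjusted p = 0.071) for sh1319 in Capan-1, were not called. Both were called by other settings, the former without background correction (0.28, adjusted p = 0.0056) and with the stricter filter (adjusted p = 0.025), the latter without background correction (-0.31, adjusted p = 0.0033), without the filter on dim probes (adjusted p = 0.039) and with the stricter filter (adjusted p = 0.018). On the dimmer probe these pairs were at 0.19 and -0.12, neither called. The brighter probe's mean over all 4 pairs was therefore close to 0, at -0.17 (SE 0.07, adjusted p = 0.096). The rise in MIA PaCa-2 was not called on the brighter probe with median scaling (0.52, adjusted p = 0.089), nor without replicate 2 of shCtrl (0.31, adjusted p = 0.15) or either sh1319 array (0.36 and 0.39, adjusted p = 0.11 and 0.087).

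The difference between the lines was tested directly, as the mean change in MIA PaCa-2 minus that in Capan-1. For MYC it was 1.01 (SE 0.14, adjusted p = 0.00046) on the brighter and 0.95 (SE 0.17, adjusted p = 0.0034) on the dimmer probe. The 2 hairpins also differed in Capan-1, where MYC was higher with sh1319 than with sh1209 by 0.68 (SE 0.11, adjusted p = 0.0022) and 0.89 (SE 0.14, adjusted p = 0.0018). PTK2 on its brighter probe was lower with sh1319 than with sh1209 in that line by a log2 difference of -1.16 (SE 0.11, adjusted p = 6.2e-05), and on its dim probe the hairpins differed by 0.00 (SE 0.16, adjusted p = 1). In MIA PaCa-2 the same difference for MYC was 0.07 (SE 0.11, adjusted p = 0.72).

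NCL, nucleolin, an abundant RNA-binding protein of the nucleolus, gave a different answer on each of its 2 probes. The brighter probe read 10.53 and 10.32 with shCtrl, 10.96 and 10.78 with sh1209, and 10.30 and 10.49 with sh1319 in the MIA PaCa-2 arrays. In Capan-1 it read 10.46 and 10.49, 10.66 and 10.81, and 10.36 and 10.64 in the same order. Both sh1209 arrays lay above both controls in each line, and the sh1319 arrays overlapped or straddled them.

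On that probe NCL rose by 0.44 (SE 0.14, limma adjusted p = 0.048) with sh1209 in MIA PaCa-2 and was not called in the other pairs. The dimmer NCL probe, at 8.32 and 8.23 with shCtrl in MIA PaCa-2 and at 7.99 and 7.70 with shCtrl in Capan-1, read 6.85 and 7.28 with sh1319 in Capan-1, a fall by 0.78 (SE 0.20, adjusted p = 0.022). In that comparison the brighter probe read 0.03 (SE 0.14, adjusted p = 0.94), so the table does not settle a direction for NCL.

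**Figure D1:**
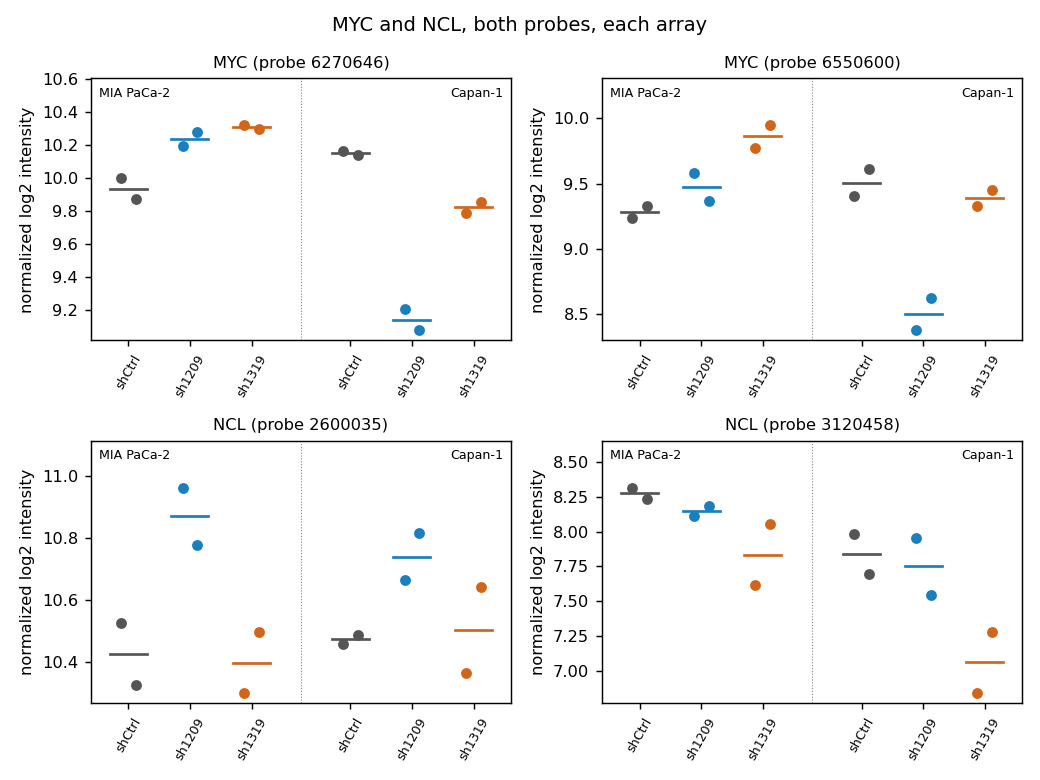
Normalized log2 intensity (vertical axis) of both MYC and both NCL probes in each of 12 arrays, by hairpin within cell line, with points for arrays and a bar at the mean of the 2 arrays. By group means MYC stands above its control in MIA PaCa-2 and below it in Capan-1 on both probes, lowest with sh1209 in Capan-1 (9.20 and 9.08 on the brighter probe), whereas the NCL probes differ from each other. On the dimmer MYC probe the sh1319 arrays of Capan-1 (9.32 and 9.45) overlap their controls (9.40 and 9.61).

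With quantile normalization most calls over the 57 member probes were falls, and they were mainly in Capan-1. With median scaling, given below, the Capan-1 pairs had fewer calls than the MIA PaCa-2 pairs. With sh1209 in MIA PaCa-2 9 member probes were called higher and 6 lower, where 9.05% and 8.99% of all probes were called in those directions. Of those 6, 4 were of NHP2, and by the brightest probe of each gene 8 were higher and 2 lower. With sh1319 in MIA PaCa-2 the counts were 4 and 11 (7.02% and 19.3% of the members), against 12.2% and 12.1% of all probes. In Capan-1 sh1209 gave 0 higher and 19 lower (33.3%), against 8.14% and 8.69%, and sh1319 gave 1 higher and 16 lower (28.1%), against 6.95% and 6.77%. The median change of the member probes in the 4 pairs, in that order, was 0.08, -0.08, -0.25 and -0.24, and the median over all probes was within 0.01 of 0 in each. Among the leukocyte markers, of which PTPRC and CD3E had no tested probe, LYZ moved with the Capan-1 groups. Its brighter probe read 12.21 and 12.04 with shCtrl, 10.84 and 10.83 with sh1209, and 11.46 and 11.68 with sh1319 there, changes of -1.29 and -0.56 (limma adjusted p = 3.5e-05 and 0.012), and its part in the members' falls was not tested.

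The mean over the 4 pairs, called the combined comparison, had 3 member probes higher and 20 lower (35.1%), against 12.5% and 12.7% of all probes, with a member median of -0.14. Counted by the brightest probe of each gene, 11 of 39 genes fell, 2 rose and 26 were not called. A single probe, 1 of 3 for NOP56, was called lower in each of the 4 pairs, and none was called higher in all 4. The 8 probes called lower in at least 3 pairs were of NOP56, NHP2 and GNL3 alone. There were 26 probes with no call in any pair and 6 that were called higher in 1 pair and lower in another. The share of all probes with such patterns was not counted, so these counts only describe the members.

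These counts depended on the scaling. When arrays were only set to a common median, the medians over all probes moved to 0.09 with sh1209 and 0.11 with sh1319 in Capan-1, and those of the members to -0.07 and -0.09. Relative to all probes the members then stood at -0.16 and -0.20 in Capan-1, 0.06 and -0.03 in MIA PaCa-2 and -0.09 in the combined comparison. With that scaling 0 member probes were called higher and 2 lower with sh1209 in Capan-1, 0 and 1 with sh1319, 2 and 4 with sh1209 in MIA PaCa-2, 4 and 6 with sh1319, and 2 and 10 in the combined comparison. Over all probes the same scaling called 8.3% higher and 1.86% lower with sh1209 in Capan-1, 8% and 1.38% with sh1319, 4.72% and 4.55% with sh1209 in MIA PaCa-2, 10.6% and 5.3% with sh1319, and 13.6% and 3.86% in the combined comparison.

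**Figure D2:**
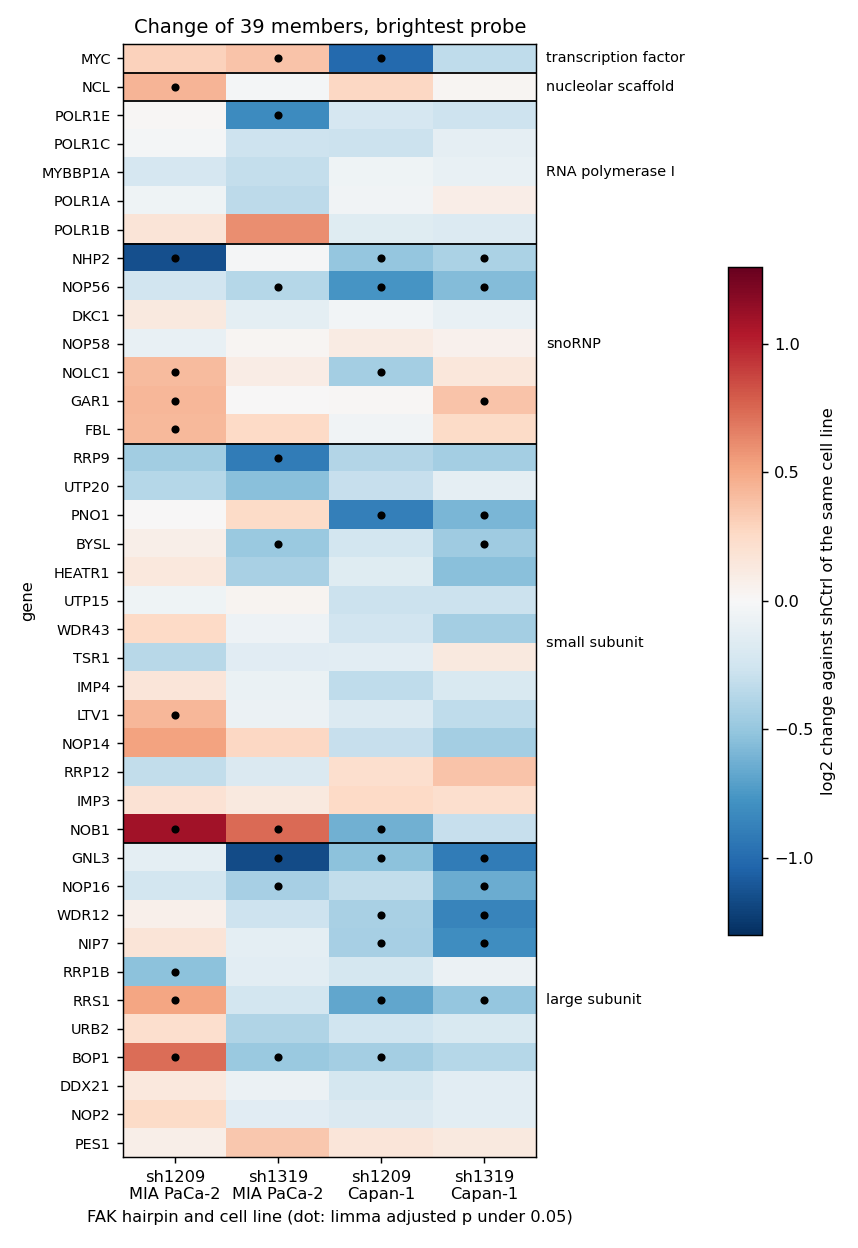
Log2 change against the shCtrl of the same line (colour scale, red higher and blue lower) for the brightest probe of 39 members (rows, grouped by role) in the 4 pairs of hairpin and line (columns), with a dot where limma called the change. The Capan-1 columns are mostly blue, with 11 genes lower and 0 higher for sh1209, while NOB1 is red in both MIA PaCa-2 columns (1.09 and 0.73).

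Among the genes of RNA polymerase I, POLR1E, a subunit of the enzyme, was the one whose brightest probe was called. It read 8.47 and 8.58 with shCtrl, 8.57 and 8.50 with sh1209, and 7.72 and 7.70 with sh1319 in the MIA PaCa-2 arrays. Both sh1319 arrays lay below the other 4, a fall by 0.82 (SE 0.11, limma adjusted p = 0.00025) to 56.8% of the control. Its dimmer probe fell by 0.77 (SE 0.13, adjusted p = 0.001). In Capan-1 POLR1E changed by -0.22 and -0.27 with the 2 hairpins on the brighter probe, neither of them called.

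POLR1B, the subunit next in size to POLR1A, was dim. Its second probe was detected in 0 of 2 control arrays of MIA PaCa-2. The difference on it in that line was at least 1.24-fold for sh1209 and at least 1.39-fold for sh1319. These bounds set the mean of the brighter group against the lowest level detected on each dim array. The probe was detected in 4 arrays, all of them knockdown arrays of MIA PaCa-2, and passed the detection rule only through them. Its calls (limma adjusted p = 0.044 and 0.01) are thus no support for a rise. The counts of member probes called higher in MIA PaCa-2 and in the combined comparison include this probe. The other POLR1B probe, detected in all 12 arrays, was not called in any comparison. POLR1C, shared by RNA polymerases I and III, and MYBBP1A, a nucleolar protein, were not called anywhere, and MYBBP1A was detected in only 6 arrays. POLR1A, the largest subunit, was detected in 3.

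The snoRNP proteins split. NHP2, a core protein of the H/ACA snoRNPs that guide pseudouridylation, read 11.16 and 11.23 with shCtrl, 10.05 and 10.07 with sh1209, and 11.12 and 11.25 with sh1319 in the MIA PaCa-2 arrays on its brightest probe. In Capan-1 it read 11.38 and 11.29, 10.88 and 10.80, and 10.87 and 10.98 in the same order. The sh1209 arrays of MIA PaCa-2 stood more than 1 log2 unit below the rest of that line, and in Capan-1 all 4 knockdown arrays lay below both controls.

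In limma NHP2 fell by 1.14 (SE 0.11, adjusted p = 3e-05) to 45.4% of control with sh1209 in MIA PaCa-2, and its other 3 probes fell by 1.21 to 1.26. With sh1319 in MIA PaCa-2 its 4 probes were not called, and the difference between the hairpins was 1.12 (SE 0.11, adjusted p = 2.4e-05). In Capan-1 NHP2 fell by 0.50 (SE 0.11, adjusted p = 0.0098) with sh1209 and by 0.42 (SE 0.11, adjusted p = 0.029) with sh1319. The combined change was -0.52 (SE 0.07, adjusted p = 0.00021).

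GAR1, a further H/ACA protein, moved the other way in 2 groups. On its brightest probe it read 8.88 and 8.90 with shCtrl, 9.30 and 9.35 with sh1209, and 8.91 and 8.88 with sh1319 in the MIA PaCa-2 arrays, and 8.83 and 8.81, 8.91 and 8.75, and 9.16 and 9.23 in Capan-1. Each line thus had 1 hairpin with both arrays above both controls, sh1209 in MIA PaCa-2 and sh1319 in Capan-1. The rises were 0.44 (SE 0.11, limma adjusted p = 0.016) and 0.37 (SE 0.11, adjusted p = 0.043), with a combined change of 0.21 (SE 0.07, adjusted p = 0.042). In each of these comparisons this was the only 1 of 3 GAR1 probes called. Over the 3 probes the changes ran from 0.29 to 0.49 and from 0.05 to 0.37, and from 0.07 to 0.21 combined.

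The combined and the Capan-1 calls of GAR1 were close to the threshold. Without any 1 of 11 arrays for the combined change, all but replicate 2 of sh1209 in Capan-1, the adjusted p lay between 0.053 and 0.11, and it was 0.054 with median scaling. For the Capan-1 change it lay between 0.054 and 0.17 without any 1 of 10 arrays, all but those of sh1209 in Capan-1. DKC1, the pseudouridine synthase of the H/ACA snoRNPs, was not called in any pair and had a combined change of -0.03, between those of its partners.

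NOP56, a core protein of the C/D snoRNPs that guide 2′-O-methylation, was the gene with a probe called lower in all 4 pairs. Its brightest probe read 11.63 and 11.45 with shCtrl, 11.34 and 11.24 with sh1209, and 11.13 and 11.21 with sh1319 in the MIA PaCa-2 arrays, and 10.79 and 10.84, 10.08 and 10.00, and 10.23 and 10.26 in Capan-1. In both lines all 4 knockdown arrays lay below both controls. In limma it fell by 0.77 (SE 0.11, adjusted p = 0.00079) with sh1209 and by 0.56 (SE 0.11, adjusted p = 0.0068) with sh1319 in Capan-1.

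In MIA PaCa-2 NOP56 fell by 0.37 (SE 0.11, limma adjusted p = 0.034) with sh1319, and the sh1209 change was not called on this probe. Its 3 probes had combined changes of -0.49 (SE 0.07), -0.51 (SE 0.08) and -0.63 (SE 0.08), all called (adjusted p = 0.00035, 0.00069 and 0.00013). With median scaling the sh1209 change in Capan-1 was -0.60 and not called (adjusted p = 0.062). NOP58, its C/D partner, was not called in any pair. FBL, fibrillarin, the methyltransferase of the same particle, rose by 0.43 (SE 0.13, adjusted p = 0.038) with sh1209 in MIA PaCa-2 and was not called in the other pairs. NOLC1, a nucleolar phosphoprotein that binds both kinds of snoRNP, rose by 0.41 (SE 0.12, adjusted p = 0.034) with sh1209 in MIA PaCa-2 and fell by 0.44 (SE 0.12, adjusted p = 0.026) with sh1209 in Capan-1.

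For the small subunit, 3 of 14 genes were called lower and 1 higher in the combined comparison, or 20% and 6.67% of their 15 probes, against 12.7% and 12.5% of all probes. RRP9, a protein of the U3 snoRNP, read 6.01 and 6.03 with shCtrl, 5.51 and 5.64 with sh1209, and 5.17 and 5.06 with sh1319 in the MIA PaCa-2 arrays. In Capan-1 it read 5.24 and 5.41, 4.79 and 5.09, and 5.04 and 4.73 in the same order, near the bottom of the detected range. Every knockdown array lay below both controls of its line.

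The combined fall of RRP9 was 0.54 (SE 0.09, limma adjusted p = 0.00091), and with sh1319 in MIA PaCa-2 it fell by 0.91 (SE 0.14, adjusted p = 0.00069) to 53.3% of control. Without background correction the changes were -0.21 and -0.36, both still called. The other 3 pairs were at -0.45, -0.38 and -0.44 and were not called. BYSL, a factor of early 40S assembly, fell by 0.48 (SE 0.11, adjusted p = 0.0086) and 0.46 (SE 0.11, adjusted p = 0.02) with sh1319 in MIA PaCa-2 and Capan-1, and its sh1209 changes were not called.

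NOB1, the endonuclease that makes the final cut of 18S rRNA, had the largest rise of all members. It read 6.58 and 7.13 with shCtrl, 7.82 and 8.07 with sh1209, and 7.53 and 7.64 with sh1319 in the MIA PaCa-2 arrays, and 6.75 and 6.41, 5.93 and 5.98, and 6.44 and 6.11 in Capan-1. All 4 knockdown arrays of MIA PaCa-2 lay above both controls, although the controls themselves differed, and in Capan-1 both sh1209 arrays lay below both controls, while the sh1319 arrays overlapped them. In limma it rose by 1.09 (SE 0.19, adjusted p = 0.0021) with sh1209 and by 0.73 (SE 0.19, adjusted p = 0.016) with sh1319 in MIA PaCa-2, and fell by 0.63 (SE 0.19, adjusted p = 0.044) with sh1209 in Capan-1.

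Without background correction the NOB1 rise with sh1319 was 0.48, still called. That rise was not called without replicate 1 of its control (0.45, limma adjusted p = 0.14) or without replicate 1 or 2 of sh1319 (0.78 and 0.67, adjusted p = 0.051 and 0.081). PNO1, which binds NOB1 on the 40S precursor, was flat in MIA PaCa-2 (0.00 and 0.25, not called) and fell in Capan-1 by 0.89 (SE 0.13, adjusted p = 0.00075) with sh1209 and by 0.59 (SE 0.13, adjusted p = 0.011) with sh1319. With median scaling the former was -0.60 and not called (adjusted p = 0.082).

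IMP3, a U3 snoRNP protein, read 10.28 and 10.21 with shCtrl, 10.50 and 10.37 with sh1209, and 10.34 and 10.40 with sh1319 in the MIA PaCa-2 arrays, and 10.72 and 10.68, 10.97 and 10.95, and 10.90 and 10.94 in Capan-1. All knockdown arrays lay above both controls of their line, by little. Its combined change was 0.20 (SE 0.07, limma adjusted p = 0.048), which was not called with median scaling (adjusted p = 0.15) or without any 1 of 11 arrays, all but replicate 2 of sh1209 in MIA PaCa-2 (adjusted p between 0.065 and 0.14).

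LTV1, which helps to assemble the head of the 40S precursor, rose by 0.43 (SE 0.12, limma adjusted p = 0.024) with sh1209 in MIA PaCa-2. IMP4, a gene with a printed E-box, and UTP15, both of the processome that forms on the precursor rRNA, were not called in any comparison. UTP20, NOP14, WDR43, HEATR1, RRP12 and TSR1, of the same early and later 40S steps, were not called in any of the 4 pairs. UTP20 was dim, with its brightest probe detected in 7 arrays.

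For the large subunit, 5 of 11 genes were called lower in the combined comparison and none higher, or 43.8% and 0% of their 16 probes, against 12.7% and 12.5% of all probes. GNL3, nucleostemin, a nucleolar GTPase, read 9.59 and 9.66 with shCtrl, 9.55 and 9.44 with sh1209, and 8.42 and 8.50 with sh1319 in the MIA PaCa-2 arrays. In Capan-1 it read 8.97 and 8.97, 8.46 and 8.42, and 8.05 and 8.07. The sh1319 arrays were the lowest in both lines, apart from all others of the line, and the sh1209 arrays lay below the controls by little in MIA PaCa-2 and clearly in Capan-1.

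In limma GNL3 fell by 1.16 (SE 0.11, adjusted p = 1.1e-05) to 44.7% of control with sh1319 in MIA PaCa-2, and by 0.91 (SE 0.11, adjusted p = 0.00026) to 53.1% in Capan-1. With sh1209 it fell by 0.53 (SE 0.11, adjusted p = 0.0056) in Capan-1 and was not called in MIA PaCa-2 (-0.12). Its combined change of -0.68 (SE 0.07, adjusted p = 2.1e-05) was the largest among the brightest probes of the members. A second probe gave -0.56 (SE 0.08, adjusted p = 0.00027), and another, dim and detected in 8 arrays, was not called in any pair.

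BOP1, PES1 and WDR12 form one complex that acts on the precursor of the large subunit, and their RNAs did not move together. BOP1 read 10.00 and 9.88 with shCtrl, 10.58 and 10.75 with sh1209, and 9.54 and 9.39 with sh1319 in the MIA PaCa-2 arrays, and 9.92 and 9.84, 9.45 and 9.43, and 9.57 and 9.46 in Capan-1. The sh1209 arrays lay above and the sh1319 arrays below both controls in MIA PaCa-2, while in Capan-1 all 4 knockdown arrays lay below. It rose by 0.72 (SE 0.12, limma adjusted p = 0.0014) with sh1209 and fell by 0.48 (SE 0.12, adjusted p = 0.012) with sh1319 in MIA PaCa-2, and fell by 0.45 (SE 0.12, adjusted p = 0.024) with sh1209 in Capan-1.

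WDR12 read 9.86 and 9.85 with shCtrl in MIA PaCa-2, where neither hairpin was called, and 8.40 and 8.47 with shCtrl in Capan-1. There it fell by 0.42 (SE 0.11, limma adjusted p = 0.02) with sh1209 and by 0.86 (SE 0.11, adjusted p = 0.0004) with sh1319. Its second probe gave -0.44 and -0.71, both called. With median scaling the sh1319 fall was 0.58 and not called (adjusted p = 0.077). PES1 was not called in any comparison.

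RRS1, which brings the 5S particle into the large subunit, read 7.21 and 7.12 with shCtrl, 7.58 and 7.77 with sh1209, and 6.89 and 6.96 with sh1319 in the MIA PaCa-2 arrays, and 7.41 and 7.43, 6.70 and 6.78, and 6.80 and 7.05 in Capan-1. As with BOP1, the hairpins lay on either side of the controls in MIA PaCa-2 and both below them in Capan-1. It rose by 0.51 (SE 0.12, limma adjusted p = 0.014) with sh1209 in MIA PaCa-2 and fell by 0.68 (SE 0.12, adjusted p = 0.0033) and 0.50 (SE 0.12, adjusted p = 0.021) in Capan-1. That rise was not called with median scaling (0.58, adjusted p = 0.12), nor without replicate 2 of shCtrl (0.47, adjusted p = 0.077) or of sh1209 (0.42, adjusted p = 0.1).

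NIP7, a factor of 60S assembly, fell in Capan-1 by 0.43 (SE 0.12, limma adjusted p = 0.03) with sh1209 and by 0.81 (SE 0.12, adjusted p = 0.0012) with sh1319, the latter at -0.60 and not called with median scaling (adjusted p = 0.055). NOP16, of the same pathway, fell with sh1319 in both lines, by 0.43 (SE 0.11, adjusted p = 0.012) in MIA PaCa-2 and by 0.65 (SE 0.11, adjusted p = 0.0022) in Capan-1. RRP1B, a nucleolar protein of large subunit maturation, fell by 0.53 (SE 0.15, adjusted p = 0.027) with sh1209 in MIA PaCa-2, a call that was lost with median scaling (-0.44, adjusted p = 0.23), without replicate 2 of shCtrl (-0.45, adjusted p = 0.14), and without replicate 1 or 2 of sh1209 (-0.52 and -0.55, adjusted p = 0.11 and 0.088), and that stood at -0.20 without background correction (adjusted p = 0.041). NOP2, an rRNA methyltransferase, URB2 and the helicase DDX21, a gene with a printed E-box, were not called in any pair.

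**Figure D3:**
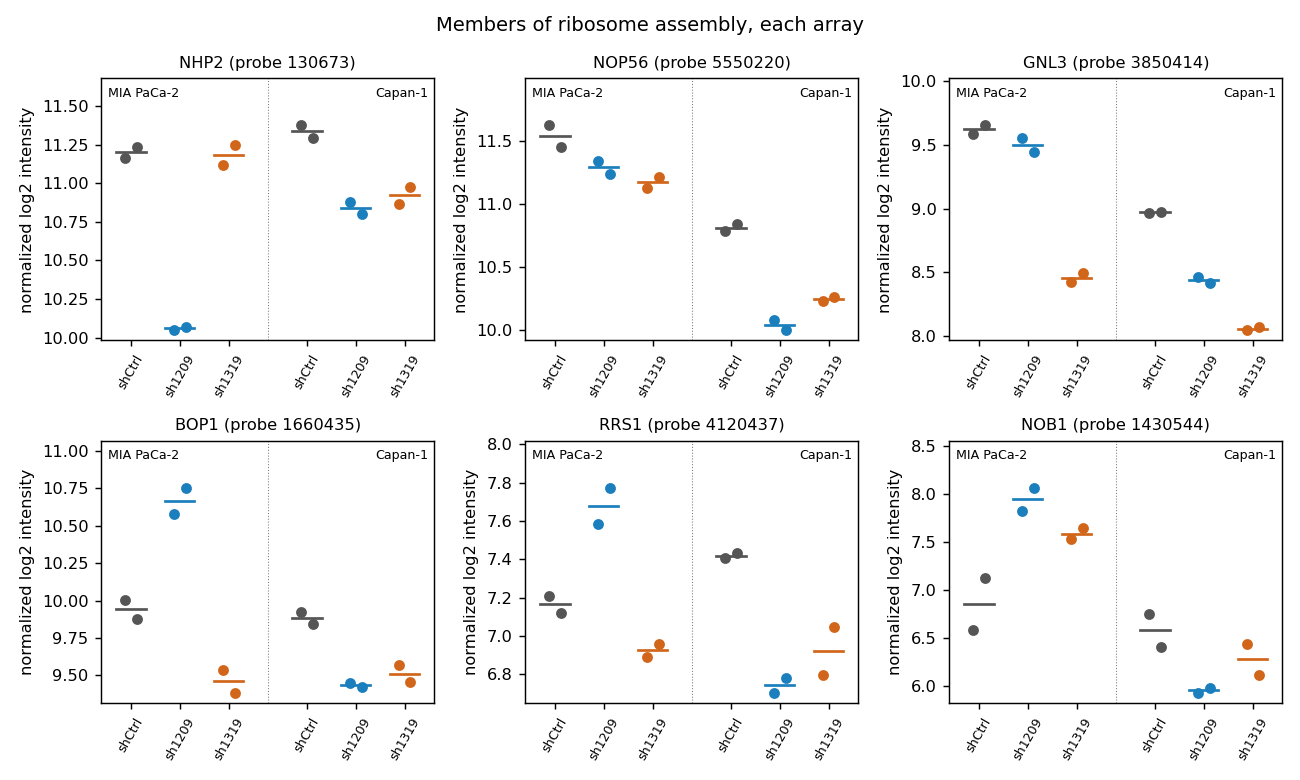
Normalized log2 intensity (vertical axes, each with its own range) of the brightest probe of NHP2, NOP56, GNL3, BOP1, RRS1 and NOB1 in each of 12 arrays, by hairpin within cell line, with a bar at the mean of 2 arrays. NHP2 falls with sh1209 alone and GNL3 with sh1319 alone in MIA PaCa-2, both fall with both hairpins in Capan-1, and NOB1 lies above its control in MIA PaCa-2 only.

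The 2 lines were then compared in their response. The interaction, the mean change of both hairpins in MIA PaCa-2 minus that in Capan-1, was called above 0 for 9 member probes of 7 genes and below 0 for none, against 7.24% and 7.11% of all probes, and the member median was 0.15. By the limma test 16 of 57 member probes had an unadjusted p under 0.05, against 27.7% of all probes. NOB1 had the largest difference, 1.38 (SE 0.23, adjusted p = 0.0024), with a mean change of 0.91 in MIA PaCa-2 against -0.47 in Capan-1, and without background correction it was 0.86, still called. MYC came next, and PNO1 followed at 0.87 (SE 0.16, adjusted p = 0.0038).

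The other 4 genes were of the large subunit. RRS1 had an interaction of 0.72 (SE 0.15, limma adjusted p = 0.0084), NIP7 of 0.64 (SE 0.15, adjusted p = 0.014), WDR12 of 0.53 (SE 0.13, adjusted p = 0.019) and BOP1 of 0.53 (SE 0.15, adjusted p = 0.032). The count was 5 without replicate 2 of shCtrl in MIA PaCa-2, and with median scaling it was 2, the probe of NOB1 and the brighter probe of MYC. PTK2 had an interaction of -1.17 (SE 0.14, adjusted p = 0.00021) on its brighter probe and of 0.47 (SE 0.20, adjusted p = 0.15) on its dim one, and its part in the members' difference was not tested.

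**Figure D4:**
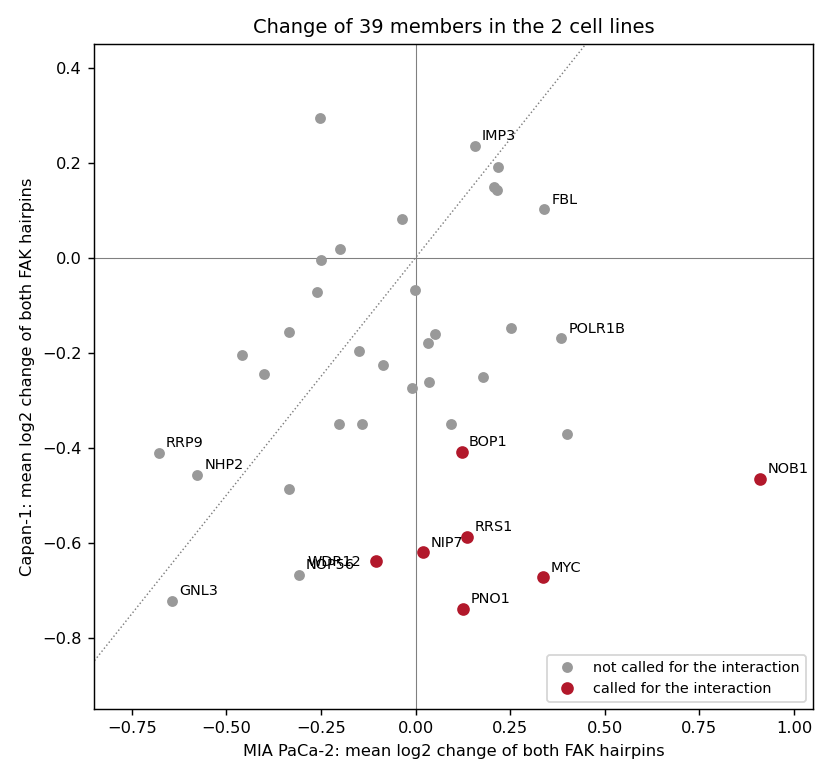
Mean log2 change of both FAK hairpins in MIA PaCa-2 (horizontal axis) against that in Capan-1 (vertical axis) for the brightest probe of 39 members, 1 point a gene, red where limma called the interaction, with a dotted line of equal change. The 7 red genes, among them NOB1 (0.91 and -0.47) and MYC (0.34 and -0.67), all lie below the dotted line, whereas GNL3, NOP56 and RRP9 lie low in both lines.

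The hairpins did not act alike on these genes in MIA PaCa-2. The difference of sh1319 from sh1209 was called for 21 member probes, 4 higher and 17 lower, against 11.2% and 11.5% of all probes, with a member median of -0.24. All 4 higher probes were of NHP2. Among the lower probes BOP1 had the largest difference at -1.20 (SE 0.12, limma adjusted p = 2.4e-05), followed by GNL3 at -1.04 (SE 0.11, adjusted p = 3.1e-05), and POLR1E, RRS1, URB2, BYSL, HEATR1 and LTV1 lay between -0.83 and -0.51 on their brightest probes, all called. PTK2 was not called in that comparison on its brighter probe, and its dim probe differed by -0.59 (adjusted p = 0.021).

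In Capan-1 the same difference was called for 6 member probes, 3 higher and 3 lower, against 5.47% and 5.81% of all probes. The 3 higher probes were those of MYC and NOLC1, the latter at 0.58 (SE 0.12, limma adjusted p = 0.0089), or 0.35 without background correction, still called. The lower probes were of NCL (the dimmer), WDR12 (-0.44, SE 0.11, adjusted p = 0.022) and GNL3 (-0.38, SE 0.11, adjusted p = 0.04). The MYC call on the brighter probe stood without any 1 array, and with median scaling that difference was 0.65 and not called (adjusted p = 0.062). Without 1 array the count lay between 2 and 5. Without replicate 1 or 2 of sh1319 or replicate 1 of sh1209 in Capan-1, WDR12 was not called (-0.46, -0.42 and -0.40, adjusted p = 0.079, 0.097 and 0.13), nor without replicate 2 of sh1209 (-0.49, adjusted p = 0.059). NOLC1 was lost without replicate 1 of sh1209 (0.49, adjusted p = 0.086) or replicate 2 of sh1319 (0.53, adjusted p = 0.064), and GNL3 without any 1 of the 12 arrays (adjusted p between 0.05 and 0.18).

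With the control hairpin the 2 lines already differed. In shCtrl cells 29 member probes were called lower in Capan-1 than in MIA PaCa-2 and 1 higher, or 50.9% and 1.75% of the members, against 22.5% and 19.6% of all probes. The member median was -0.50 and that of all probes -0.04, and with median scaling the members lay at -0.44 relative to all probes, with 23 lower and 0 higher. By gene, 21 of 39 were lower in Capan-1, 8 of 14 of the small subunit and 7 of 11 of the large subunit among them.

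WDR43, of the processome, read 7.78 and 7.76 in MIA PaCa-2 against 6.13 and 6.13 in Capan-1, a difference of -1.63 (SE 0.15, limma adjusted p = 2.6e-06), which was -1.02 without background correction and still called. NOP58 read 10.82 and 10.55 against 9.11 and 9.27, a difference of -1.49 (SE 0.14, adjusted p = 3.1e-06), and WDR12 differed by -1.42 (SE 0.11, adjusted p = 5e-07). The arrays of these 3 genes did not overlap between the lines, which is no added support, since they were named as the largest called falls. TSR1 (-1.36), LTV1 (-1.26), NOP2 (-1.25), DKC1 (-1.10) and RRP12 (-1.01) followed, and all were called. DDX21 was lower by a log2 difference of -0.75 (SE 0.19, adjusted p = 0.0063) and UTP20 by -0.54 (SE 0.19, adjusted p = 0.039), both of them genes with a printed E-box.

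IMP3 was the gene higher in Capan-1, by 0.46 (SE 0.11, limma adjusted p = 0.0044), and with median scaling by 0.34, not called (adjusted p = 0.23). POLR1A was lower, at least 1.14-fold, with 1 of 2 MIA PaCa-2 and 0 of 2 Capan-1 control arrays detected (adjusted p = 0.048). It passed the detection rule through MIA PaCa-2 arrays alone, so that call is no support. MYC differed by 0.22 (SE 0.11, adjusted p = 0.14), NHP2 and BOP1 were not called either, and the order of the lines was thus not shared by all members. LYZ was detected on its brighter probe in 6 of 6 Capan-1 and in 0 of 6 MIA PaCa-2 arrays, and on its second probe in 6 and 5 of them. PTPRC and CD3E had no probe that passed the detection rule, and what LYZ has to do with the members' difference was not tested. The lines also differ in puromycin dose, which cannot be told apart from the line.

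**Figure D5:**
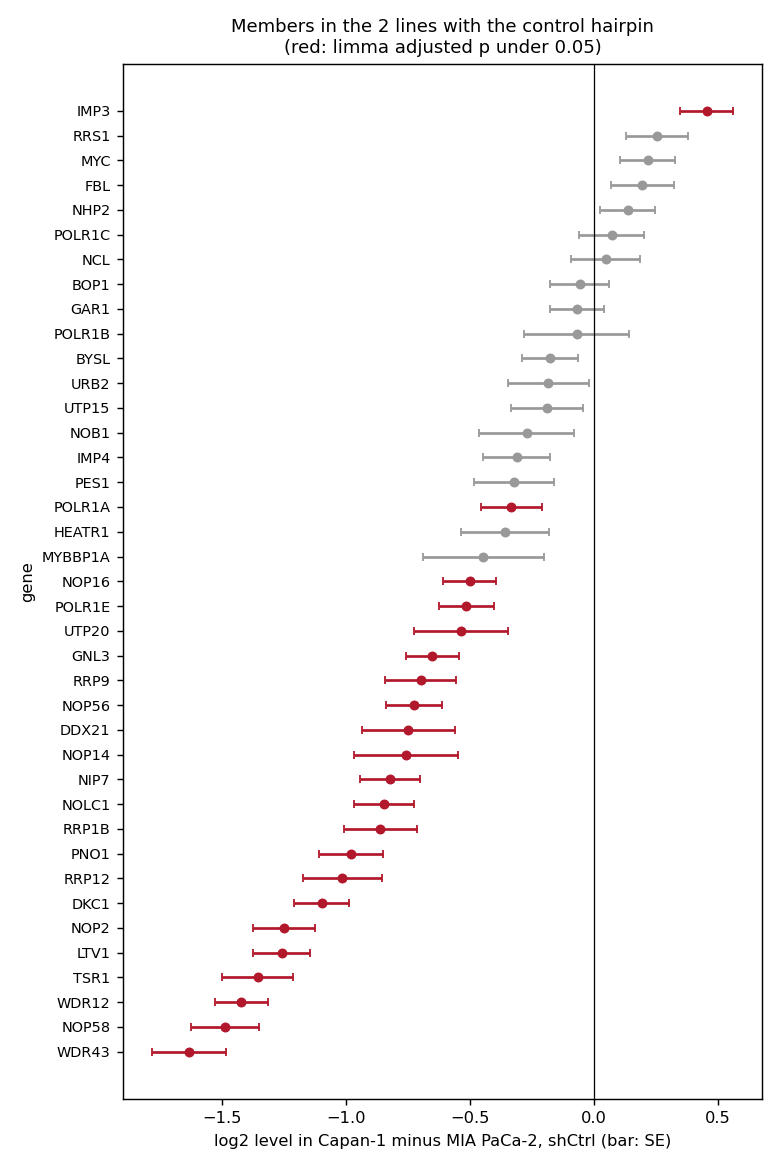
Log2 level in Capan-1 minus MIA PaCa-2 with shCtrl (horizontal axis, bar for the SE) for the brightest probe of 39 members (vertical axis, sorted), red where limma called the difference. The range runs from IMP3 at 0.46 to WDR43 at -1.63, with 21 genes called lower in Capan-1 and 1 called higher.

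Genes of the same pathway outside the set were counted too. Of 107 further ribosome biogenesis genes, 99 were tested on 138 probes, and in the combined comparison 3 probes were called higher and 43 lower (2.17% and 31.2%), against 12.5% and 12.7% of all probes, with a median of -0.14. In the single pairs of MIA PaCa-2, 17 probes were called lower and 9 higher for sh1209 and 38 and 8 for sh1319, and in those of Capan-1 the counts were 35 and 1, then 32 and 1. The lower ones made 12.3%, 27.5%, 25.4% and 23.2% of the 138, against 8.99%, 12.1%, 8.69% and 6.77% of all probes. In shCtrl cells 68 were lower and 10 higher in Capan-1 (49.3% and 7.25%), against 22.5% and 19.6%. EXOSC8, of the RNA exosome that trims precursor rRNA, had a combined change of -0.80 (limma adjusted p = 0.00057), and KRR1, of the small subunit, of -0.76 (adjusted p = 4e-05), while DDX49 and URB1 were the largest rises at 0.48 and 0.36.

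MYC's network partners were tested for 10 of 12 genes on 16 probes. That list holds factors that pair or compete with MYC for MAX, and also others of the wider network, such as MLX and MLXIPL. In the combined comparison 2 probes were called higher and 2 lower (12.5% each), against 12.5% and 12.7% of all probes. MXD4, which competes with MYC for MAX and represses E-box genes, rose by 0.98 (limma adjusted p = 6.1e-06), with 1.02, 1.09, 0.93 and 0.86 in the 4 pairs. MNT, of the same kind, was at 0.43, but MXD3, also of that kind, fell by 0.38, so these competitors did not move together. MLX fell by 0.81. Of 31 MYC target genes outside ribosome biogenesis, 30 were tested on 53 probes. Combined, 2 probes were higher and 17 lower (3.77% and 32.1%), against the same background, with a median of -0.13. With sh1209 and sh1319 in MIA PaCa-2, 5 and 15 were called lower (9.43% and 28.3%) and 3 and 4 higher. In Capan-1 it was 11 and 10 lower (20.8% and 18.9%) and 2 and 0 higher. Of all probes, 8.99%, 12.1%, 8.69% and 6.77% were called lower in those pairs. The largest share lower was with sh1319 in MIA PaCa-2, where MYC was called higher, and a link to MYC was not tested. HK2, a hexokinase, fell by 0.69 in the combined comparison, with -1.28 and -1.91 for sh1319 but 0.34 and 0.10 for sh1209 in MIA PaCa-2 and Capan-1. PRDX3, a mitochondrial peroxidase, fell by 0.40. CCND2, a cyclin, rose by 1.40, with 1.95 and 3.56 in the MIA PaCa-2 pairs against 0.01 and 0.09 in the Capan-1 pairs.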

How the data were processed

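RNA from 12 samples, 2 for each of 6 groups of cell line and hairpin, was hybridised to Illumina HumanHT-12 arrays. The authors deposited the linear intensity of each probe and its detection p-value, without normalization, with GenomeStudio 2011.1 named in the submitters' processing notes. The table has 47320 rows, 92 of them spike-in controls, and 28 columns without values. The genome build is not given in the sources used here.

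Samples were grouped by their labels. Background was corrected by limma's nec (normexp on the detection p-values, offset 16), quantile normalization and log2 followed, and probes detected at p under 0.05 in at least 2 of 12 arrays were kept (24207 of 47228). The 6 group means were fitted by limma 3.58.1 in R 4.3.3 (6 residual degrees of freedom), with Benjamini-Hochberg adjustment over all probes of a comparison. Averaging the 4 changes of a FAK hairpin from its own shCtrl gave the combined comparison. The fit was tested on simulated data.

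The members, the gene lists and the cell type markers were chosen with earlier results of these data known. All members could be named. Values by array were given for MYC, NCL and the members with the largest called changes in the combined comparison, the interaction and the hairpin difference in MIA PaCa-2, and for NOP56, RRS1, POLR1E, WDR43 and NOP58, which were added after their values were seen. Where the arrays of members picked in these ways lay apart from their controls, that is a description and no added support. Its share over all probes was not counted. Of other genes, the 2 largest called rises and falls of a list were named. A gene's brightest probe is the one with the highest mean normalized intensity. Rows that were not detected in 2 arrays, the NPM1 row and 1 to 2 further rows of NOP2, TSR1 and UTP20, were left out. The number of arrays limits the precision.

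The alternatives were median scaling, leaving out the background correction, no filter on dim probes and a stricter one (p under 0.01 in all 12 arrays), the replicate number as a block, array weights, 1 probe a gene, only the arrays compared, each array left out, and the two-tailed unpaired t-test that the methods name.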

Additional observations from a re-analysis of the deposited data

Results flagged for a closer look

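The response to the loss of FAK differed between the cell lines for 9 probes of 7 members, by the interaction term of the limma fit over 12 arrays. These were 15.8% of the 57 member probes, all above 0, with 0 below, against 7.24% and 7.11% of all probes. At an unadjusted p under 0.05 in limma there were 16 of 57 member probes, against 27.7% of all probes, so the number of calls was near that of all probes. The difference, MIA PaCa-2 minus Capan-1, was 1.38 for NOB1 (adjusted p = 0.0024), 1.01 and 0.95 for the 2 MYC probes (adjusted p = 0.00046 and 0.0034) and 0.87 for PNO1 (adjusted p = 0.0038). It was 0.72 for RRS1 (adjusted p = 0.0084), 0.64 for NIP7 (adjusted p = 0.014), 0.56 and 0.53 for the 2 WDR12 probes (adjusted p = 0.022 and 0.019) and 0.53 for BOP1 (adjusted p = 0.032). The mean changes were of opposite sign for NOB1 (0.91 and -0.47) and for the MYC probes (0.34 and -0.67, 0.38 and -0.56), and of the other genes, PNO1 had 0.13 and -0.74, RRS1 0.14 and -0.59, NIP7 0.02 and -0.62, WDR12 -0.01 and -0.58 or -0.10 and -0.64, and BOP1 0.12 and -0.41. PTK2 differed between the lines on its brighter probe, at -1.17 (adjusted p = 0.00021), but not by this test on its dim probe, at 0.47 (adjusted p = 0.15), and its part in these differences was not tested.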

How the results depend on the processing

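No named log2 change of a single gene changed its sign under the alternatives run. The balance of member calls did for sh1209 in MIA PaCa-2, where 9 higher and 6 lower became 2 and 4 with median scaling and with only the arrays compared, 5 and 6 with array weights, 3 and 5 or 3 and 4 without replicate 1 or 2 of shCtrl, and 4 and 5 or 2 and 4 without those of sh1209. Of the 6 lower probes in the main fit, 4 were of NHP2, and by the brightest probe of each gene 8 were higher and 2 lower. In those other settings the balance by gene was not counted. The member median for sh1319 in MIA PaCa-2 went from -0.08 to 0.01 with median scaling. Of 192 counts of called member probes under alternatives 146 stayed within 1.5 times, and 22 of 38 named calls stood with median scaling. The cause of the changes was not tested. Counts of called member probes are given in the order MIA PaCa-2 with sh1209, with sh1319, Capan-1 with sh1209, with sh1319. The counts were 15, 15, 19 and 17. With median scaling they were 6, 10, 2 and 1, with 12 against 23 for the combined comparison, 2 against 9 for the interaction, and 10 against 21 and 1 against 6 for the hairpin differences (MIA PaCa-2, then Capan-1). Without background correction they were 24 for sh1209 in MIA PaCa-2 and 11 for the hairpin difference in Capan-1. The stricter filter gave 26 for sh1319 in Capan-1, 14 for the interaction and 10 for the hairpin difference in Capan-1. With 1 probe a gene, which tests fewer probes, counts were 9 for sh1319 in MIA PaCa-2, then 11 and 10 for the Capan-1 pairs and 13 combined. With only the arrays compared, which leaves fewer degrees of freedom, they were 6 and 9 in MIA PaCa-2, 11 for sh1319 in Capan-1, and 13 and 3 for the hairpin differences.

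The methods' t-test at an unadjusted p under 0.05 called 13 member probes for the hairpin difference in Capan-1, and after Benjamini-Hochberg it called 0 in each pair and each hairpin difference, where limma had called 6 to 21 and where that t-test called 13 to 20 before adjustment, and 10 of 30 between the lines. MYC's combined change was called without background correction (-0.15, limma adjusted p = 0.011) and with the stricter filter (-0.17, adjusted p = 0.03), and was -0.04 with median scaling (adjusted p = 0.89).

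Without 1 array the counts ranged from 6 to 15, 8 to 16, 11 to 19 and 9 to 18 in the 4 pairs, 18 to 23 combined, 5 to 11 for the interaction, 13 to 19 and 2 to 5 for the hairpin differences, and 28 to 30 between the lines. For sh1209 in MIA PaCa-2 they were 8 and 7 without replicate 1 or 2 of shCtrl and 9 and 6 without those of sh1209. For sh1319 in MIA PaCa-2 it was 8 without replicate 2 of sh1319. For sh1209 in Capan-1 they were 11 and 12 without replicate 1 or 2 of shCtrl and 12 without replicate 2 of sh1209. For sh1319 in Capan-1 they were 10 and 9 without those of shCtrl and 9 and 11 without those of sh1319. The interaction had 5 without replicate 2 of shCtrl in MIA PaCa-2, and the hairpin difference in MIA PaCa-2 had 13 without replicate 1 of sh1319. In Capan-1 it had 2 without replicate 1 of sh1209 and 3 without either sh1319 array.

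With a replicate block the counts were 14, 16, 18 and 17 in the 4 pairs, 21 combined, 11 for the interaction, 18 and 4 for the hairpin differences and 30 between the lines. The numbers share only a name, since deviations of same-numbered arrays correlated at -0.06 to 0.16 over the 15 pairs of groups. With that block the calls of GAR1 (0.37 in Capan-1, 0.21 combined), IMP3 (0.20 combined) and GNL3 (-0.38 between the hairpins in Capan-1) were lost, at adjusted p = 0.055, 0.052, 0.056 and 0.052.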
